A study of Homo sapiens with 4 samples.

Results

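The ZBTB genes encode transcriptional regulators that carry a BTB domain at the amino end and zinc fingers at the carboxyl end. The family was taken here as every protein-coding gene in RefSeq (GRCh38.p14) on chromosomes 1 to 22 and X whose symbol starts with ZBTB, together with BCL6B. BCL6, the protein under study and itself a BTB zinc finger protein, was left out. This gave 43 of 19974 protein-coding genes. The set includes ZBTB8OS, which encodes archease, a cofactor of the tRNA ligase with no BTB domain; its symbol is taken from its position opposite ZBTB8A. BCL6 occupancy came from CUT&RUN, in which an antibody directs a micrococcal nuclease to chromatin and the released fragments are sequenced. The cells were the diffuse large B-cell lymphoma line SUDHL5, an established line grown in RPMI with fetal bovine serum, with no treatment named. There were 2 BCL6 libraries labelled as biological replicates, each with its own peak list, and 2 IgG libraries that were not analysed here. With a single line and no second condition, no comparison between conditions was possible.

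The BTB domain makes dimers and, in BCL6, recruits co-repressors such as NCOR1 and BCOR, while the zinc fingers read DNA. Family members are known as switches of blood and immune cell fate: ZBTB7B directs CD4 T cells, ZBTB16 innate-like T cells and ZBTB46 marks classical dendritic cells. ZBTB17, also called MIZ-1, is bound by MYC and by BCL6, and ZBTB33, ZBTB4 and ZBTB38 bind methylated DNA. BCL6 holds germinal centre B cells in their state by repressing target genes.

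A gene was counted as having a BCL6 peak when a peak summit lay in the gene or within 10 kb of either end. A region was called shared when a peak of each replicate overlapped by at least 1 bp with both summits in that window. The lists held 5230 peaks for replicate 1 and 3529 for replicate 2 on these chromosomes, with median summit pileups of 23 and 21 fragments. Each value below therefore rests on few fragments, and the Poisson intervals given cover counting error only. Library totals are unknown. Every fold enrichment is the authors' deposited value, the summit over its local background.

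RefSeq start regions were available for 36 of the 43 members, in 70 versions, and 4 of the 70 overlapped a deposited peak (5.71%, Wilson 95% interval 2.24 to 13.8), against 6.77% of the 22156 start regions of protein-coding genes. The interval treats versions of the same gene as separate, though 10 belong to ZBTB38 and 8 to ZBTB20, so it is too narrow. The 4 that overlapped a peak are printed first, to show where the peaks meet the starts, with the start of ZBTB18 nearest to the summits inside that gene. Each line gives the 250 bases before a start, 5′ to 3′ on the gene's strand (GRCh38.p14), and capitals mark bases inside a deposited peak. ZBTB1 lies at chr14:64504520-64504769 on the plus strand, ZBTB11 at chr3:101677133-101677382 on the minus strand, ZBTB18 at chr1:244051033-244051282 on the plus strand, ZBTB20 at chr3:115147289-115147538 on the minus strand and ZBTB38 at chr3:141384555-141384804 on the plus strand.
ZBTB1: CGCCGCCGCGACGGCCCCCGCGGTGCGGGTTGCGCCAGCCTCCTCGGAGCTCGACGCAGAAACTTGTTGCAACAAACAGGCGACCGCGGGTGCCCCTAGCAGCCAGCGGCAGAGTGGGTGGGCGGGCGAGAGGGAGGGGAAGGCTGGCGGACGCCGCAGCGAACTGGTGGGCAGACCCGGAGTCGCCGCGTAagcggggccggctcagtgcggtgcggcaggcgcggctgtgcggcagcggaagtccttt
ZBTB11: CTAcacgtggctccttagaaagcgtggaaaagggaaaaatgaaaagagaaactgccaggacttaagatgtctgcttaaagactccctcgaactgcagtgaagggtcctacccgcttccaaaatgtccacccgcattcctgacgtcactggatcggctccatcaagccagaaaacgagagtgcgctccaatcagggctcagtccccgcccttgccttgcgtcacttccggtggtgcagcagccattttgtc
ZBTB18: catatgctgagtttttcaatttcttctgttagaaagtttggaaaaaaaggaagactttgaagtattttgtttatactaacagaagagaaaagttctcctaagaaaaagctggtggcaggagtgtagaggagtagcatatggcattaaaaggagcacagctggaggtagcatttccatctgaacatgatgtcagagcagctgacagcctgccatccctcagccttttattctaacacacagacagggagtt
ZBTB20: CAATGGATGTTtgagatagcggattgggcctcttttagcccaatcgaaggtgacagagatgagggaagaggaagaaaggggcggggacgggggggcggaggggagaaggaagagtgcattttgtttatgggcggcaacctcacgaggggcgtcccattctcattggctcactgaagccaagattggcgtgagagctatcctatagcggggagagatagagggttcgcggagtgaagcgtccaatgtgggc
ZBTB38: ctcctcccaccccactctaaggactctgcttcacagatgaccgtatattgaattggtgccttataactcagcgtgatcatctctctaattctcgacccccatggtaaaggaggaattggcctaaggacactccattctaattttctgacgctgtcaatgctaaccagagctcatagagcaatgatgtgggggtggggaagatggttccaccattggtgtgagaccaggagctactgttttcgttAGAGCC
The ZBTB1 stretch had 192 of its 250 bases inside a replicate 2 peak and was rich in G and C (73.2%, with 34 CpG pairs). ZBTB11 had 3 bases inside a replicate 1 peak, ZBTB20 had 11 inside a replicate 2 peak and ZBTB38 had 6 inside a replicate 1 peak. The ZBTB18 stretch, with 40.4% G and C and 0 CpG pairs, ended no closer than 470 bp to the peaks in that gene. None of the 5 stretches held TTCCTNGAA or the looser palindrome TTCNNNGAA, which contain the core letters of the BCL6 site. Among all 300-base start regions of the family, read on both strands, 0 of 70 held TTCCTNGAA and 2 held TTCNNNGAA (2.86%), a looser pattern that every match of TTCCTNGAA also fits. Over 22156 start regions of protein-coding genes the shares were 1.30% and 6.79%. With several versions for some genes and 2 matches in all, the family's shares do not settle a difference. Most family peaks lay outside these windows, so the search says nothing on them.

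BCL6 peaks were found at a minority of the family, and few were found in both replicates. Of the 43 members, 15 had a summit of either replicate (34.9%, Wilson 95% interval 22.4 to 49.8), against 23.0% of 19930 other protein-coding genes. A summit of each replicate was found at 6 members (13.95%, 6.56 to 27.3), against 8.04% of other genes: ZBTB1, ZBTB18, ZBTB20, ZBTB25, ZBTB41 and ZBTB49. A shared region was found at 5 of these, all but ZBTB49 (11.6%, 5.07 to 24.5, against 5.76%). ZBTB1 and ZBTB25 overlap at their starts and share the same peaks, so the 5 genes stand for 4 loci.

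The family is of ordinary length, with a median of 25.4 kb against 24.2 kb for other genes. Among other genes of 80% to 125% of each member's length, the mean share with a summit of each replicate was 7.74% and with a shared region 5.58%. Both values lie inside the intervals of the family's shares, so at 43 genes a difference from genes of like length was not detectable in this window. It depended on the window. Within 50 kb, 13 members had a summit of each replicate (30.2%, 18.6 to 45.1). The shares were 15.5% of other genes and 15.7% at like length, which lay below the interval. Among the 13, the neighbours ZBTB1 and ZBTB25, and likewise ZBTB6 and ZBTB26, are counted on the same peaks. The interval treats them as separate genes, so it is too narrow to settle a difference. For shared regions within 50 kb the count was 6 (13.95%, 6.56 to 27.3), against 10.2% of other genes and 10.3% at like length, inside the interval. In replicate 1 alone, 13 members had a summit (30.2%, 18.6 to 45.1), against 17.7% of other genes and 17.2% at like length. In replicate 2 alone there were 8 (18.6%, 9.74 to 32.6), against 13.3% and 13.4%. The replicate 1 interval lay just above its background and the replicate 2 interval did not. ZBTB1 and ZBTB25 count as separate genes in these shares though they hold the same peaks, so the narrow gap in replicate 1 is not secure. Summits beside another gene also bear on the replicate 1 share, since 6 of the 36 distinct summits were closer to the end of a gene outside the family. With each summit given only to the gene with the nearest end, a reading chosen after these values were seen, 9 members had one in replicate 1 (20.9%, 11.4 to 35.2), against 12.9% of other genes, and that background lay inside the interval.

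**Figure D1:**
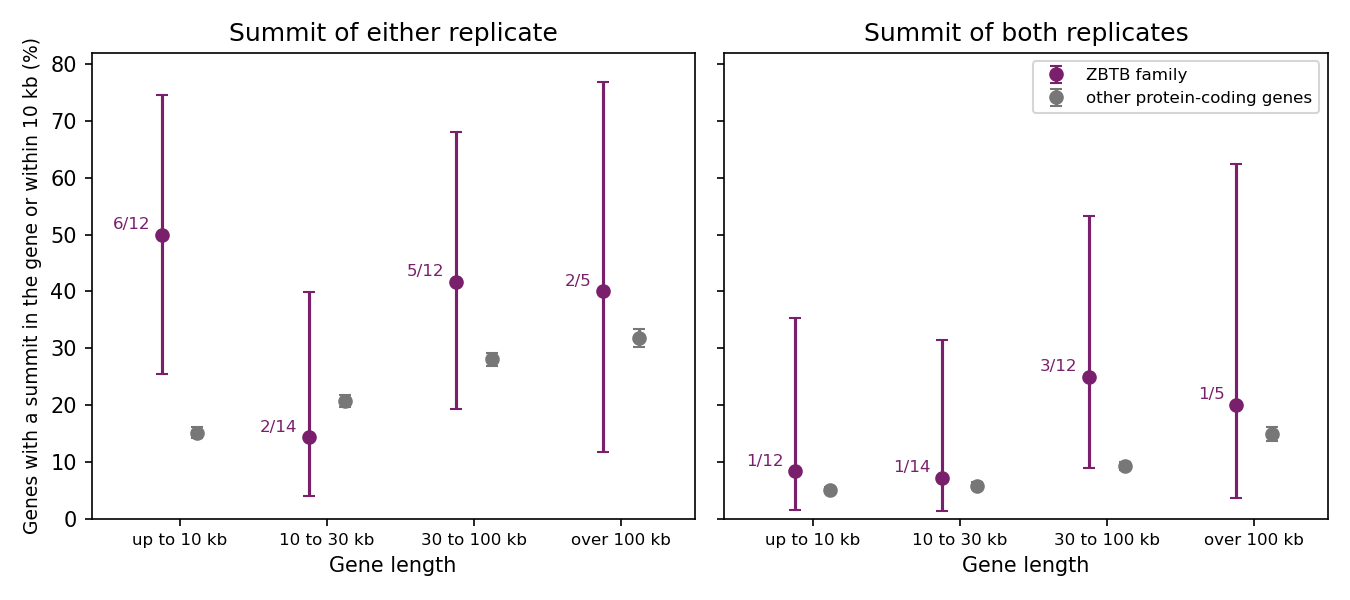
Share of genes with a BCL6 summit in the gene or within 10 kb (y axis, percent), by gene length (x axis), for the ZBTB family (purple, counts beside the points) and other protein-coding genes (grey); bars are Wilson 95% intervals. Members up to 10 kb long stand highest for either replicate (6 of 12, against 15.1% of other genes), and intervals are wide throughout.

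Split by length, members of up to 10 kb had a summit of either replicate in 6 of 12 cases (50.0%, 25.4 to 74.6), against 15.1% of other genes of that length. These are BCL6B, ZBTB6, ZBTB12, ZBTB18, ZBTB22 and ZBTB33, and at 4 of them (BCL6B, ZBTB6, ZBTB12 and ZBTB22) the summit lay closer to another gene. Only ZBTB18 had a summit of each replicate (1 of 12, 8.33%, against 5.01%). Members of 10 to 30 kb had 2 of 14 (14.3%, against 20.7%), those of 30 to 100 kb had 5 of 12 (41.7%, against 28.0%) and those over 100 kb had 2 of 5 (40.0%, against 31.9%).

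The family's peaks had median fold enrichments near those of the whole lists. In replicate 1 a smaller share than in the whole list reached a high −log10 q. The 23 distinct summits of replicate 1 had a median fold enrichment of 3.28, against 3.55 over the whole list, and a range of 2.37 to 4.82. The 13 of replicate 2 had a median of 3.85, against 3.74, and a range of 2.51 to 6.99. A −log10 q of at least 5 was reached by 4 of 23 in replicate 1 (17.4%, against 34.8% of the list) and by 4 of 13 in replicate 2 (30.8%, against 32.6%).

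**Figure D2:**
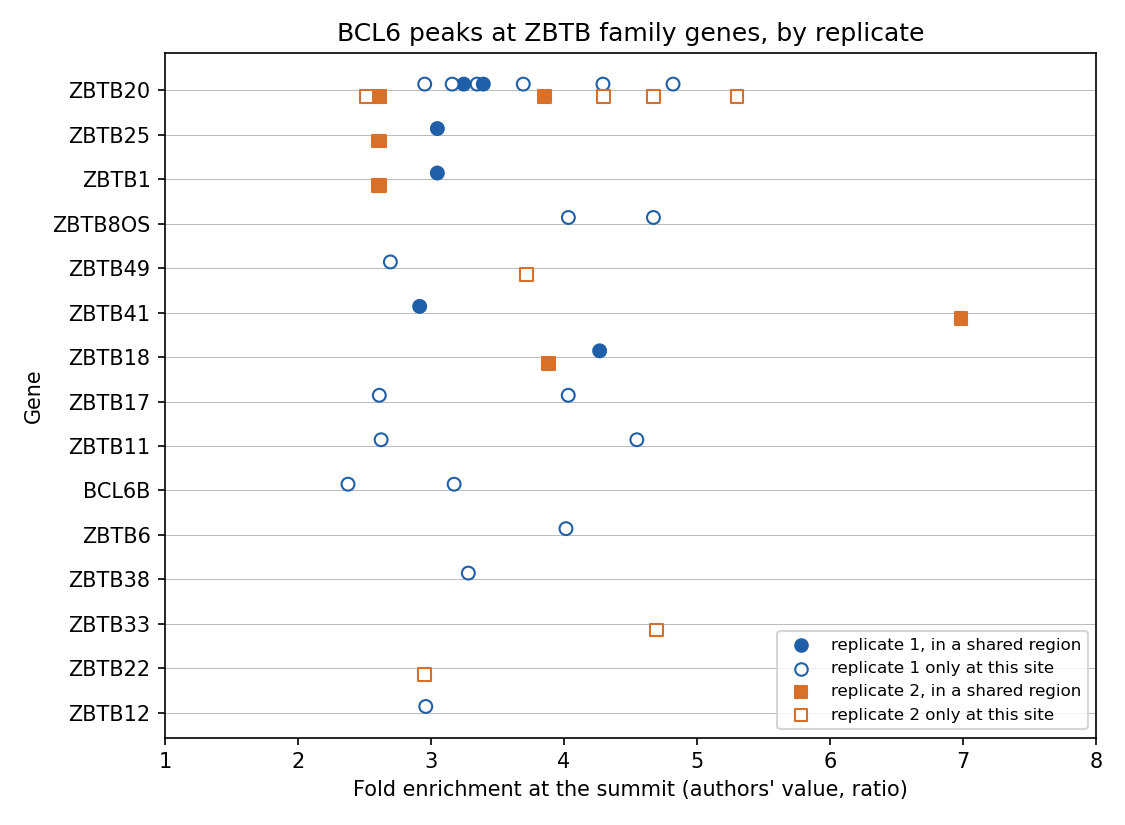
Fold enrichment (x axis, ratio) of every BCL6 summit at the 15 family genes that had one (y axis); circles are replicate 1, squares replicate 2, and filled symbols lie in a region shared by both. ZBTB20 carries 14 summits and ZBTB41 the highest value (6.99 in replicate 2); at ZBTB1 and ZBTB25 an open and a filled square coincide near 2.61.

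The strongest family peak was a replicate 2 peak at ZBTB41, a little studied zinc finger gene of 47.6 kb. Its region spanned chr1:197200577-197201267 in replicate 1 and chr1:197200686-197201307 in replicate 2, with summits 116 and 133 bp inside the upper end of the gene and 17 bp apart. Replicate 1 gave a fold enrichment of 2.91 and a −log10 q of 5.64, and replicate 2 gave 6.99 and 20.0. The replicate 1 fold enrichment lay below that list's median of 3.55. By the smaller fold enrichment of each pair, 69.1% of all shared pairs were at least as strong. By −log10 q the ZBTB41 peaks stood in place 1491 of the replicate 1 list and in place 81 of the replicate 2 list. The summit pileups were almost equal, at 42 (95% Poisson interval 30.3 to 56.8) and 44 (32.0 to 59.1). It was the local background that differed, at 13.8 in replicate 1 and 5.44 in replicate 2. A background of 13.8 or more was found at 5.26% of replicate 1 peaks, and one of 5.44 or more at 38.5% of replicate 2 peaks. Of the 2227 other genes of like length, 6.06% had a shared region. ZBTB41 was the 1 member with a shared region once both peaks had to reach a −log10 q of 5. That is 2.33% of the family, close to the 2.46% of other genes and 2.28% at like length.

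**Figure D3:**
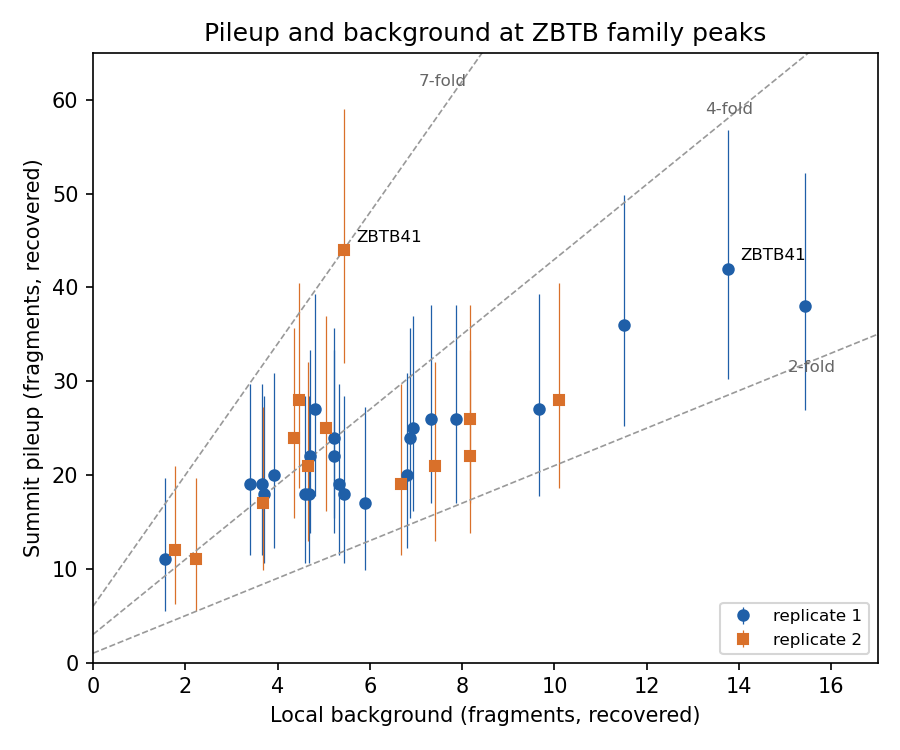
Summit pileup (y axis, fragments) against local background (x axis, fragments), both recovered from the authors' values, for the 36 distinct family summits; bars are exact Poisson 95% intervals and dashed lines mark 2-, 4- and 7-fold enrichment. The ZBTB41 peaks have pileups of 42 and 44 at backgrounds of 13.8 and 5.44.

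ZBTB18, also called RP58, is a repressor best known from cortical development, and it gave the most even pair of values. Its region lay inside the gene, at chr1:244049641-244050535 in replicate 1 and chr1:244050127-244050563 in replicate 2. Replicate 1 gave a fold enrichment of 4.27 (−log10 q 4.98) and replicate 2 gave 3.88 (−log10 q 4.30). Pileups were 20 (12.2 to 30.9) and 21 (13.0 to 32.1) at backgrounds of 3.92 and 4.66. The intervals overlap, but with library totals unknown and both peaks selected by the caller, this does not measure agreement in occupancy. The summits lay 50 bp apart, 855 and 905 bp from the nearest annotated start, the one printed above, and 1.94 and 1.89 kb from the lower end of the gene. By the smaller of both values, 27.2% of all 1388 shared pairs in the genome were at least as strong. Among the 1827 other genes of like length, 3.34% had a shared region.

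ZBTB1, which lymphoid progenitors require, and ZBTB25 run in opposite directions from overlapping starts on chromosome 14. Replicate 2 had a peak at the starts, chr14:64504399-64504711, with a fold enrichment of 2.61, a pileup of 28 (18.6 to 40.5) and a −log10 q of 2.49. Its summit lay 268 bp from a start of ZBTB1 and 538 bp from one of ZBTB25. Replicate 1 had no peak there. The shared region was further along, inside ZBTB1 and 5.51 to 5.79 kb beyond the upper end of ZBTB25. Replicate 1 gave a fold enrichment of 3.05 (−log10 q 3.52) there, and replicate 2 gave 2.61 (−log10 q 1.44), close to the lowest −log10 q of that list (1.31). The summits lay 275 bp apart, and 84.7% of shared pairs were at least as strong by the smaller value.

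ZBTB20, a repressor studied in liver, brain and B cells, held 14 of the 36 distinct family summits (38.9%), 8 of replicate 1 and 6 of replicate 2. It is also the longest member, at 833 kb on the minus strand. Of 120 other genes of like length, 73.3% had no summit, the median was 0 and 17.5% had a summit of each replicate. The 3 with at least as many as ZBTB20 were LPP (38), NPAS3 (20) and PARD3 (17).

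The ZBTB20 summits were not spread along the gene. A group of 12, 8 of replicate 1 and 4 of replicate 2, lay between chr3:114384239 and chr3:114456976, an interval of 72.7 kb that is 8.73% of the gene. The interval is 690 to 763 kb downstream of the first annotated start, and 690 kb without a summit separate it from the pair at that start. Only 2 of the 120 genes of like length had as many summits within any stretch of that length, a comparison made after the group was seen. Fold enrichments in the group ran from 2.61 to 4.82, pileups from 17 to 27 and local backgrounds from 3.66 to 7.42. The strongest was a replicate 1 peak at chr3:114449747-114451141 (4.82, −log10 q 8.10), and the strongest of replicate 2, at chr3:114444961-114445684 (4.67, −log10 q 6.68), lay 4765 bp from it by summit. These did not overlap. The regions that did overlap were weaker. One had fold enrichments of 3.39 in replicate 1 and 3.85 in replicate 2 with summits 106 bp apart. The other had 3.25 and 2.61 with summits 547 bp apart. By the smaller value, 44.6% and 84.4% of shared pairs were at least as strong. Of the 8 annotated starts of ZBTB20, 0 fell inside the interval, and 1 lay 597 bp from its outermost summit, a replicate 1 peak with a fold enrichment of 4.29.

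**Figure D4:**
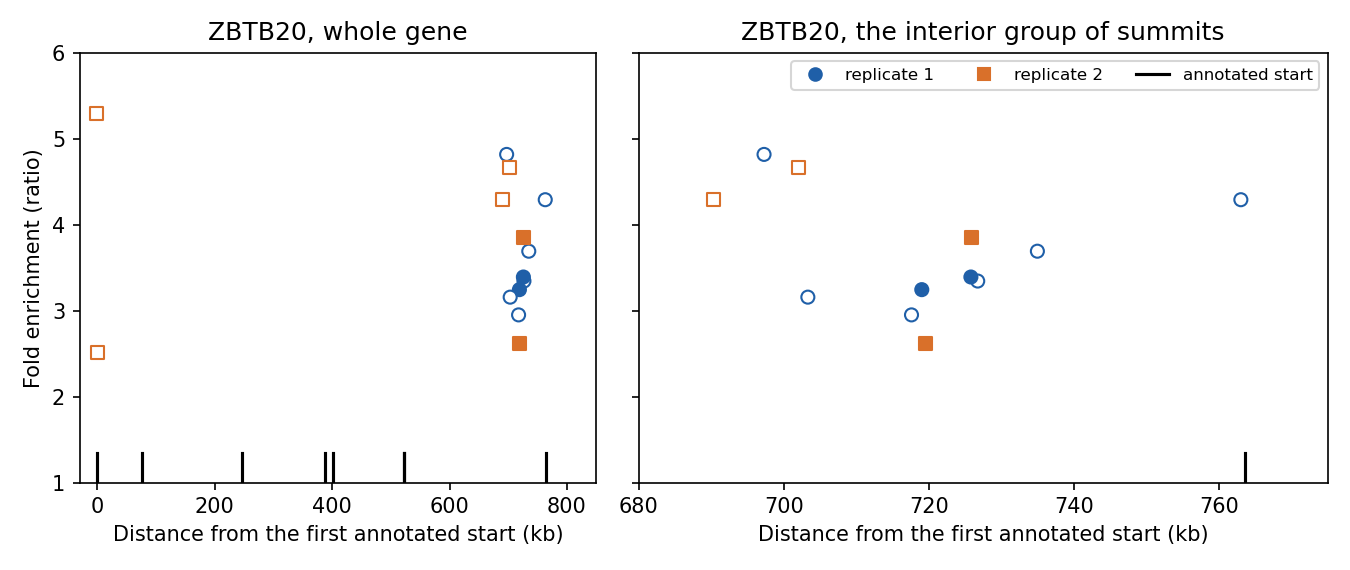
BCL6 summits along ZBTB20: distance from the first annotated start in the direction of transcription (x axis, kb) against fold enrichment (y axis, ratio), for the whole gene (left) and the interior group (right); circles are replicate 1, squares replicate 2, filled symbols are in shared regions and black ticks are annotated starts. A group of 12 summits stands 690 to 763 kb from the start, and replicate 2 alone has a pair at the start.

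At the first start of ZBTB20 replicate 2 had a pair of peaks and replicate 1 none. The stronger, chr3:115147528-115148320, had a fold enrichment of 5.30, a pileup of 28 (18.6 to 40.5) and a −log10 q of 9.33. Its summit lay 806 bp upstream of the start, and its edge covers the capitals of the printed sequence. The weaker summit, 185 bp downstream, had 2.51 and a −log10 q of 1.58.

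ZBTB49, a zinc finger regulator of CDKN1A, was the member with a summit of each replicate and no shared region. The replicate 1 summit was 422 bp from its start (fold enrichment 2.69, pileup 20, −log10 q 1.86). The replicate 2 summit was inside the gene, 10.2 kb from an end (3.72, pileup 11, −log10 q 2.00). Both −log10 q values were near the lowest of their lists, while the replicate 2 fold enrichment was close to the list's median of 3.74.

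Peaks of 1 replicate only were found at 9 members. The shares with a summit of either and of each replicate were 34.9% and 13.95% of the family, against 23.0% and 8.04% of other genes. ZBTB33, which encodes the methyl-CpG binding protein Kaiso, had a replicate 2 peak 6.01 kb from the gene with a fold enrichment of 4.70 on a pileup of 12 (6.20 to 21.0). ZBTB22 had the other peak of replicate 2 alone (2.95), whose summit was 338 bp from TAPBP, an antigen presentation gene. The remaining 7 had peaks of replicate 1. ZBTB17, encoding MIZ-1, had one 694 bp inside its upper end (4.03, pileup 22, 13.8 to 33.3, −log10 q 4.9999) and a weaker one inside the gene (2.61, −log10 q 1.37). ZBTB11, a regulator linked to mitochondrial function, had one 345 bp upstream of its start (4.55, pileup 19, 11.4 to 29.7, −log10 q 5.23) and one 668 bp inside (2.62), whose summit was 19 bp from an end of LOC124906262. The ZBTB38 peak lay 83 bp from one of its internal starts (3.28, pileup 25, 16.2 to 36.9), where the 3′ edge of the printed stretch falls. ZBTB8OS had peaks of 4.67 and 4.03 inside the gene.

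At the other members with replicate 1 peaks, the summit lay nearer to a neighbour. BCL6B, the closest relative of BCL6, had a summit 8.64 kb away that was 119 bp from RNASEK (2.37) and one 6.43 kb away that was 55 bp from SLC16A13 (3.17), and none in the gene itself. The ZBTB6 summit (4.01) lay 8.07 kb from that gene and 5.37 kb from RC3H2, and the ZBTB12 summit (2.96) was 89 bp from the complement gene C2.

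The remaining 28 members had no summit in their window. Of these, 10 had one of either replicate within 50 kb (35.7%, 20.7 to 54.2). The share was 18.5% among the 15347 other genes without a summit in the window, a background below the interval. The median distance to the nearest was 66.2 kb, against 179 kb for those genes, which were not matched for length. At ZBTB26 and ZBTB8A the nearest summit was one already counted for the family neighbours ZBTB6 and ZBTB8OS. Just outside the window, ZBTB14 had a replicate 1 summit 13.1 kb away (4.67). ZBTB46 had a shared region 15.1 kb away with 5.98 in replicate 1 and 3.85 in replicate 2, the only one within 50 kb of these 28. Just inside it were ZBTB6 and BCL6B, with summits 8.07 and 8.64 kb away.

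Several members named whatever their values had no summit in the window. For ZBTB7A, a repressor known as LRF, the nearest summit was 73.2 kb away (replicate 2, 4.60), and for ZBTB7B the nearest were 26.9 and 32.5 kb away in replicates 1 and 2 (2.35 and 2.74). For ZBTB32, which restrains B cell recall responses, they were 28.2 and 23.8 kb away (2.76 and 2.87). ZBTB16, which encodes PLZF and spans 197 kb, had none within 144 kb, and ZBTB7C, added here for its length of 386 kb, had none within 95.2 kb. Among other genes of like length, 33.0% had a summit of either replicate for ZBTB16 and 30.4% for ZBTB7C. Of the 36 distinct family summits, 26 had no overlapping peak in the other replicate (72.2%, 56.0 to 84.2), against 69.2% of all 8759 peaks. A gene without a peak is one where neither list holds a summit in the window, and whether BCL6 is absent there was not tested.

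By position, 11 of the 39 pairings of a member with a summit (28.2%, 16.5 to 43.8) lay within 1 kb of an end of the gene, against 32.6% for other genes. A further 21 (53.8%, against 42.6%) lay inside the gene away from its ends, 12 of them the ZBTB20 group, and 7 (17.9%, against 24.8%) lay outside. Without ZBTB20 the shares were 36.0%, 36.0% and 28.0%. With strand known, 11 of 32 pairings (34.4%, 20.4 to 51.7) lay within 1 kb of an annotated start, against 36.1% for other genes, which was no detectable difference. The 39 pairings hold 36 distinct summits, since those of ZBTB1 and ZBTB25 count for both genes. Both intervals treat pairings as independent and are therefore too narrow.

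Genes related by domain or partnership were read the same way. Of the 6 BTB zinc finger genes with other names, 2 had a summit of each replicate (33.3%, 9.68 to 70.0, against 6.36% at like length). They were MYNN, with a shared region (3.61 in replicate 1 and 3.62 in replicate 2), and PATZ1 (4.21 and 3.66), with no overlap. ZNF131 had a replicate 1 peak (3.97), and HIC1, HIC2 and GZF1 had none. Of 46 BTB-Kelch genes, adaptors of the CUL3 ubiquitin ligase, 5 had a summit of each replicate (10.9%, 4.73 to 23.0, against 8.26% at like length). Of 518 zinc finger genes with ZNF symbols, ZNF131 among them and many of them KRAB repressors, 26 did (5.02%, 3.45 to 7.25, against 7.49%), and here the like-length value lay above the interval. Neighbouring genes can be counted on the same peaks, which the interval ignores, so this narrow gap is not secure either.

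Of 4 partners of the BTB domain, BCOR and CUL3 had shared regions (50.0%, 15.0 to 85.0, against 8.55% at like length). BCOR, the co-repressor that BCL6 recruits through its BTB domain, held 14 summits over 126 kb, 6 of replicate 1 and 8 of replicate 2, with top fold enrichments of 6.87 and 6.37 and 2 shared pairs. Of 1421 other genes of like length, 6 had at least as many summits (0.422%). CUL3 held 8, 5 of replicate 1 and 3 of replicate 2, with tops of 5.37 and 3.49 and 2 shared pairs, and 18 of 1445 genes of like length had at least as many. NCOR1 had 2 replicate 1 peaks (top 3.12), and BCORL1 had none. The rankings by summit count were not planned and were made only for BCOR and CUL3, the partners with the most summits.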

How the data were processed

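The files were the peak lists of 2 BCL6 CUT&RUN libraries, called per sample. The tools named by the submitters' processing notes are MACS2, Bowtie2, cutadapt, Picard, SAMtools, FastQC, deepTools and bedtools, and the build is hg38. For versions, settings and the peak caller's control, nothing is given in the sources used here. The deposited columns hold the authors' fold enrichment (a ratio), −log10 p, −log10 q, the offset of the summit from the start of the peak, and a deposited score equal to 10 times the −log10 q, which was not used. The authors' lists start at a −log10 q of 1.31.

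Genes and starts came from RefSeq GRCh38.p14. Pileup and local background were solved from fold enrichment = (pileup + 1) / (background + 1) and the Poisson p, within 0.001 for all 8759 peaks. Like-length shares are means over members of the share among all other genes of 80% to 125% of the member's length. Intervals are Wilson or exact Poisson at 95%. No test was run: 1 condition was measured, and the family and the lists were chosen with earlier results of these data known. Named genes were every member with a shared region, BCL6B and 8 well known members whatever their values. The 5 strongest of the members with peaks but no shared region were also named. ZBTB8A, ZBTB12, ZBTB14, ZBTB22, ZBTB26 and ZBTB46 were named after their values were seen. A further partner gene is not reported here. Peak assignment and recovery were tested on simulated data. Python 3.11.15, NumPy 2.4.6, pandas 2.3.3 and SciPy 1.17.1 were used. The alternatives were other windows, −log10 q minimums, overlap rules, length factors, single lists and ways of counting neighbours.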

Additional observations from a re-analysis of the deposited data

How the results depend on the processing

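No paired analysis was possible because a pairing needs 2 groups with values, and the BCL6 libraries were the 1 group with values here. The 6 members with a summit of each replicate became 2 at a −log10 q minimum of 5, ZBTB20 and ZBTB41 (4.65%, against 3.01% of other genes). At 10 they became 0 (against 1.21%). Within 50 kb they became 13 (30.2%, 18.6 to 45.1, against 15.7% at like length, now below the interval). Among those 13, ZBTB1 with ZBTB25 and ZBTB6 with ZBTB26 are counted on the same peaks, which the interval ignores. With a reciprocal overlap of at least 50%, the 5 with a shared region became 2 (4.65%, against 3.84% of other genes). They became 3 with summits within 200 bp (6.98%, against 4.29%). At a −log10 q minimum of 5 they became 1 (2.33%, against 2.46%), and at 10 they became 0 (against 1.18%). A single list can hold no shared region, so there only members with any summit of that list were counted. They were 8 without replicate 1 (18.6%, against 13.3% of other genes) and 13 without replicate 2 (30.2%, against 17.7%). The margin of the shared-region share over genes of like length was 6.05 percentage points. It turned to −1.01 with a −log10 q of at least 10, since no member was left, and was 0.0496 with at least 5. For any summit of a single list, a looser call, the margin was 5.21 without replicate 1 and 13.0 without replicate 2. Summits in the windows fell from 23 to 4 in replicate 1 and from 13 to 4 in replicate 2 with a −log10 q of at least 5. The share within 1 kb of an end was 28.2%, 50.0% with a −log10 q of at least 5 (8 pairings), 12.8% within 500 bp, and 20.8% to 40.0% without replicate 2 or 1. Low pileups limit every count.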
